A study of Mus musculus with 15 samples.

Results

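Cathepsins are the proteases of the lysosome, and cystatin C is the secreted protein that inhibits most of them. The genes described here are *Ctsa*, *Ctsb*, *Ctsc*, *Ctsd*, *Ctsh*, *Ctsk*, *Ctsl*, *Ctss* and *Ctsz*, which encode 9 cathepsins, and *Cst3*, which encodes cystatin C. They were chosen by name, and all 10 were found among the 56748 genes of the count table, of which 37808 had a count. Folic acid injury was accompanied by a 13.3-fold higher *Ctss*, a 9.33-fold higher *Ctsk* and a 5.42-fold higher *Ctsc* in the kidney, and these 3 genes were lower again in kidneys of mice given the leptin antibody. *Cst3* and *Ctsd* rose less, and *Ctsa*, *Ctsh* and *Ctsl* had lower values in injured kidney without passing the fold threshold. In bleomycin-injured lung *Ctss*, *Ctsk* and *Ctsc* did not pass the test between antibody and IgG, and *Ctsl* had the lowest fold of the 10 genes.

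The study asked whether neutralizing leptin limits fibrosis after organ injury. All 15 libraries are bulk RNA from wild-type male C57Bl/6 mice, 3 libraries a group, each taken as 1 mouse. WTK kidneys came from mice aged 10 to 12 weeks that had received vehicle, and the labels name no antibody for them. IgGK and LepK kidneys came from mice of that age that had received a single dose of folic acid at 200 mg/kg, which injures the tubules, followed by control IgG (IgGK) or the leptin-neutralizing antibody LepAb (LepK). IgGL and LepL lungs came from mice aged 12 weeks that had received a single intratracheal dose of bleomycin at 1.5 units/kg, which injures the alveoli, followed by control IgG (IgGL) or LepAb (LepL). The antibodies were given at 10 mg/kg on alternate days, for 21 days in the kidney groups and for 14 days in the lung groups, and tissue was taken on day 28 and on day 14. A lung group without bleomycin was not analysed here, so the lung comparison shows antibody against IgG in injured lung and not the effect of the injury. WTK differed from the injured kidney groups in folic acid. Whether WTK mice also received antibody injections is not given by the labels, so a difference in injections cannot be told apart from the injury.

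The lysosomal cathepsins are made as inactive precursors, sorted to the lysosome by their mannose 6-phosphate tag and activated in its acid lumen. Cathepsins B, C, H, K, L, S and Z are cysteine proteases of the papain family, cathepsin D is an aspartic protease and cathepsin A is a serine carboxypeptidase. Tubule cells of the kidney use them to digest filtered protein that they have taken up, macrophages use them to digest engulfed material and to trim antigens, and some can be secreted into the matrix. Cystatin C blocks the papain family but not cathepsins A and D.

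Each library held 25913969 to 38924788 counted reads, and the members held 88 to 61385 of them in a library. All 10 genes passed the filter on low counts in both organs. Proximal tubule markers (8 of 8) were detected in every kidney library and alveolar type 2 markers (8 of 8) in every lung library, as the tissue labels would have it. The 3 IgGL lungs were uneven, with a chi-square per gene between pairs of 44.1 to 98.6, where pairs within the other groups had 7.15 to 48. Replicate 1 had the highest summed level of 7 genes of MHC class II antigen processing, with 4389 normalized CPM (reads scaled to library size) where replicates 2 and 3 had 2193 and 1568, and replicate 3 had the highest summed level of neutrophil markers, with 415.1 CPM where replicates 1 and 2 had 175.6 and 203.8. In bulk tissue, fewer cells of a type and less RNA per cell cannot be told apart. Differences are given on TMM-normalized CPM, which do not correct for gene length. A gene counted as called where edgeR's quasi-likelihood test, adjusted by Benjamini-Hochberg over all genes tested, gave p under 0.05 and where the log2 fold change was beyond 0.5 in either direction.

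**Figure D1:**
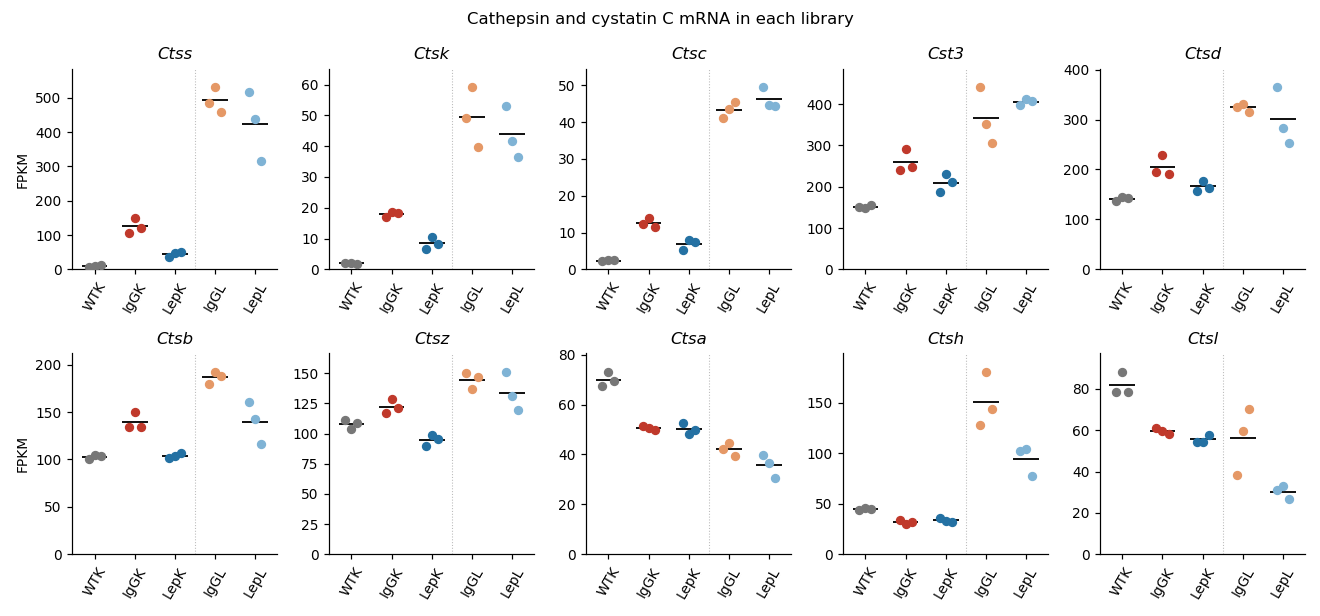
FPKM (reads scaled by gene length and library, as deposited) of each of the 10 genes in each library, by group, with kidney groups to the left of the dotted line and lung groups to its right. Points are libraries and bars are group means. *Ctss*, *Ctsk* and *Ctsc* lie near 0 in WTK, highest among the kidney groups in IgGK and between both in LepK, while *Ctsa*, *Ctsh* and *Ctsl* are highest among the kidney groups in WTK.

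Levels can be compared between genes only per length, and for this the deposited FPKM were used. In WTK kidney *Cst3* was the highest of the 10 genes, at 151 ± 2.90 FPKM (SD, n = 3), followed by *Ctsd* at 141 ± 4.25. *Ctsz* at 108 ± 4.05 and *Ctsb* at 103 ± 2.40 came next, and their libraries overlapped. *Ctsl* (81.9), *Ctsa* (70.0) and *Ctsh* (45.0) formed a middle range in which no neighbours overlapped. *Ctss* at 9.76 ± 1.99, *Ctsc* at 2.39 ± 0.182 and *Ctsk* at 1.98 ± 0.0984 FPKM were the lowest genes. In IgGK *Ctss* had moved to the fourth place with 127 ± 22.2 FPKM, where its libraries overlapped with those of *Ctsb* (139 ± 9.03) and *Ctsz* (122 ± 5.83). In LepK it was the seventh at 44.9 ± 8.64 FPKM and overlapped with *Ctsa* and *Ctsh*. *Cst3* and *Ctsd* held the first and the second place in each kidney group.

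The order in lung was another. *Ctss* was the highest gene in IgGL, at 492 ± 36.9 FPKM, above *Cst3* at 366 ± 69.6 and *Ctsd* at 324 ± 8.003. In LepL *Ctss* (423 ± 102 FPKM) and *Cst3* (406 ± 7.41) overlapped. The lower end in IgGL held *Ctsl* (56.0 ± 16.2), *Ctsk* (49.4 ± 9.75), *Ctsc* (43.4 ± 2.23) and *Ctsa* (42.2 ± 2.64), each overlapping with its neighbour. In LepL *Ctsl* was the lowest of the 10 at 30.3 ± 3.18 FPKM, next to *Ctsa* at 35.7 ± 4.53.

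The question of the first kidney comparison is what folic acid injury with IgG did to these genes against vehicle. Of the 10 genes, 5 were called higher in IgGK, where 21.7% of the 19593 genes tested were called higher. The median log2 fold change of the 10 was 0.53, beside 0.04 over all genes tested. None was called lower by edgeR or by DESeq2, where 15.6% of all genes were called lower by edgeR, and 3 of the 10 had a lower value at an unadjusted p under 0.05.

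*Ctss* (ENSMUSG00000038642, chromosome 3, 95434097 to 95463714, plus strand) encodes cathepsin S, which in antigen-presenting cells trims the invariant chain from MHC class II. It stood at 12.8, 16.2 and 19.2 CPM in the 3 WTK libraries, at 180.2, 254 and 205 in IgGK and at 58.0, 79.3 and 85.7 in LepK. The 3 groups did not overlap, and LepK lay between the other two. *Ctss* rose by 3.73 on the log2 scale from WTK to IgGK (SE 0.19, edgeR adjusted p = 2.87e-08), the largest of the 10 genes.

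*Ctsk* (ENSMUSG00000028111, chromosome 3, 95406567 to 95416673, plus strand) lies beside *Ctss* and encodes cathepsin K, the collagen-degrading protease of osteoclasts, which fibroblasts also make. Its libraries held 3.66, 3.79 and 3.43 CPM in WTK, 31.9, 35.04 and 34.6 in IgGK and 12.1, 19.3 and 15.4 in LepK. The order of the groups was that of *Ctss*, again without overlap. The rise in IgGK was 3.22 on the log2 scale (SE 0.16, edgeR adjusted p = 2.64e-08). Of 6 osteoclast markers 5 could be tested, and 4 of these were called higher in IgGK, among them *Dcstamp*, which drives the fusion of osteoclasts and of macrophages. Its level went from 0.0504 ± 0.0438 CPM in WTK to 3.32 ± 0.961 in IgGK (SD, n = 3). All 9 fibroblast markers were called higher as well, and their summed level was 188.5 to 249.8 CPM in WTK and 1454 to 1656 in IgGK. The part of either cell type in the *Ctsk* result was not tested.

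*Ctsc* (ENSMUSG00000030560, chromosome 7, 87927293 to 87960096, plus strand) encodes cathepsin C, the dipeptidyl peptidase that activates serine proteases in the granules of neutrophils, mast cells and cytotoxic lymphocytes. WTK libraries held 15.5, 16.9 and 17.96 CPM, IgGK libraries 88.2, 101 and 83.7 and LepK libraries 37.7, 57.5 and 53.5. Every IgGK library was above every LepK library, and both groups were above WTK. *Ctsc* rose by 2.44 (log2) in IgGK (SE 0.14, edgeR adjusted p = 6.52e-08). Of the 9 serine proteases listed as its substrates only 4 had enough counts to test in kidney, and *Prtn3*, neutrophil proteinase 3, was called higher in IgGK (log2 fold change 2.95, SE 0.36, edgeR adjusted p = 2.03e-05) at 2.42 ± 0.531 CPM against 0.307 ± 0.0785.

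The promoters of *Ctss* and *Ctsc* are shown because they share a motif. Of the 10 genes 8 had a promoter in RefSeq's table (GRCm38.p6, 250 bases before the annotated start to 50 after it), with 9 promoters among them. The letters GAGGAAGT, a core bound by the myeloid factor PU.1, were searched on both strands and found in *Ctsc* and *Ctss*, and in 3.20% of 32851 promoters. They begin 151 bases before the start in *Ctsc* and 2 bases before it in *Ctss*, in capitals below as ACTTCCTC on the gene's strand. *Ctsc* also holds TTCNNNGAA, the spacing recognized by STAT factors, 236 bases before its start (in capitals), as do 8.30% of all promoters. The promoter of *Ctsk*, which had the same order of kidney groups as *Ctss* and *Ctsc*, held none of the motifs searched. A match of letters is a description and not a site of binding.
Ctss, chr3:95526536-95526835, plus strand: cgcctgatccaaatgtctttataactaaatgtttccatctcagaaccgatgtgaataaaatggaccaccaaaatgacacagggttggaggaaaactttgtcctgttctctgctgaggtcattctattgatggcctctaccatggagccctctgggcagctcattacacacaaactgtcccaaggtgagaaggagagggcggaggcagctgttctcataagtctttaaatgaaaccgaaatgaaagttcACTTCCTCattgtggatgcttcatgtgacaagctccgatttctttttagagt
Ctsc, chr7:88277835-88278134, plus strand: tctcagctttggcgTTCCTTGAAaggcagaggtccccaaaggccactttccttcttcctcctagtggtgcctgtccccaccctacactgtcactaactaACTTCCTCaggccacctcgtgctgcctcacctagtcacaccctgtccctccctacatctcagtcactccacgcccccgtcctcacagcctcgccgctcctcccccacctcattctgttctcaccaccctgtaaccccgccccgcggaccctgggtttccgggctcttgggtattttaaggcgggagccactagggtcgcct

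The same kidneys held more RNA of macrophage genes. Of 12 macrophage markers 11 were called higher in IgGK, with a median log2 fold change of 3.11, led by *Lyz2* (lysozyme, 4.84), *Itgam* (the integrin CD11b, 3.97) and *Cd14* (3.60). None of the 12 was at 0 in any library, and their summed level was 270.9 to 310.0 CPM in WTK, 1913 to 2421 in IgGK and 722 to 1050.0 in LepK. All 7 genes listed as partners of cathepsin S in antigen processing were called higher in IgGK, with a median log2 fold change of 2.40, and *Cd74*, the invariant chain itself, went from 283 ± 28.3 to 1518 ± 218 CPM (SD, n = 3). The 4 neutrophil markers that could be tested and all 6 T cell markers were called higher too, and of 6 adipocyte markers 5 were called higher and 1 lower (median 1.83), with a summed level of 87.42 to 179.6 CPM in WTK, 351.7 to 582 in IgGK and 174.3 to 341.1 in LepK. How much of the higher *Ctss*, *Ctsc* and *Ctsk* goes with more of these cells was not tested.

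*Cst3* (ENSMUSG00000027447, chromosome 2, 148713642 to 148717612, minus strand), the inhibitor, held 231, 229 and 236 CPM in WTK, 376, 457 and 391 in IgGK and 288, 357 and 327 in LepK. All 3 groups were apart. It rose by 0.81 on the log2 scale in IgGK (SE 0.09, edgeR adjusted p = 9.15e-06). Of 16 other cystatins only *Cstb* (cystatin B, which stays inside the cell) and *Cst7* (cystatin F, an inhibitor in leukocytes) could be tested in kidney, and both were called higher in IgGK, at log2 fold changes of 0.78 and 1.87. *Cst7* was outside the rule for named genes and was named after its value was seen.

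*Ctsd* (ENSMUSG00000007891, chromosome 7, 141929648 to 141941775, minus strand) encodes cathepsin D, the main aspartic protease of the lysosome. Its level was 388, 409.8 and 404 CPM in WTK, 569, 669 and 561 in IgGK and 451, 509 and 469 in LepK. The groups did not overlap, and the rise in IgGK of 0.58 (log2, SE 0.08, edgeR adjusted p = 5.26e-05) was just past the fold threshold. *Ctsb* (ENSMUSG00000021939, chromosome 14, 63359911 to 63383372, plus strand) encodes cathepsin B, an abundant endopeptidase and dipeptidase. WTK libraries held 736, 768 and 753 CPM, IgGK libraries 1004, 1126 and 1011, and LepK libraries 748, 766 and 788. IgGK stood above both other groups, which overlapped. The log2 fold change of 0.48 in IgGK (SE 0.07, edgeR adjusted p = 6.13e-05) missed the fold threshold. *Ctsz* (ENSMUSG00000016256, chromosome 2, 174269286 to 174280832, minus strand) encodes cathepsin Z, a carboxypeptidase found in immune cells. Its values were 195, 180.3 and 189 CPM in WTK, 209, 230.0 and 218 in IgGK and 157, 174 and 169 in LepK, so that LepK was the lowest group and none overlapped. The difference between IgGK and WTK was 0.22 (log2, SE 0.07, edgeR adjusted p = 0.0147), below the fold threshold.

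The other 3 genes had lower values in injured kidney. *Ctsa* (ENSMUSG00000017760, chromosome 2, 164674793 to 164682952, plus strand) encodes cathepsin A, which protects the sialidase NEU1 and the beta-galactosidase GLB1 in 1 complex. It stood at 386, 417 and 394 CPM in WTK, 299, 297 and 291 in IgGK and 302, 277 and 286 in LepK. *Ctsh* (ENSMUSG00000032359, chromosome 9, 89936205 to 89958142, plus strand) encodes cathepsin H, an aminopeptidase that alveolar type 2 cells use to process surfactant protein B. Its kidney libraries held 242, 249 and 244 CPM in WTK, 188, 169.9 and 180.3 in IgGK and 195, 182 and 178 in LepK. *Ctsl* (ENSMUSG00000021477, chromosome 13, 64507151 to 64518704, minus strand) encodes cathepsin L, an endopeptidase of broad specificity. It was measured at 618, 693 and 616 CPM in WTK, 489.7, 482 and 469 in IgGK and 429.6, 432 and 459 in LepK. For each of the 3 genes WTK was above every injured library. The log2 fold changes in IgGK against WTK were -0.43 for *Ctsa*, -0.45 for *Ctsh* and -0.42 for *Ctsl* (edgeR adjusted p 8.06e-05, 6.93e-05 and 1.94e-04), short of the fold threshold. Scaling by library size alone, which moved the median of all genes from 0.04 to 0.48, gave 0.01 for *Ctsa*, -0.01 for *Ctsh* and 0.02 for *Ctsl*. The lower values of these 3 genes thus depended on the scaling used.

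The promoters of *Ctsd* and *Ctsa* are shown because they hold the element of lysosomal genes named CLEAR. Its core TCACGTGA was found in these 2 of the 8 members with a promoter and in 0.974% of all promoters on either strand, and the E-box CACGTG inside it in *Ctsa*, *Ctsd* and *Ctsl* and in 7.15% of all. The core begins 99 bases before the start in *Ctsd*, which has a further E-box 245 bases before it, and 13 bases before and 4 bases after the second annotated start of *Ctsa* (all in capitals). In IgGK against WTK *Ctsd* had a log2 fold change of 0.58. *Ctsa* had -0.43, short of the fold threshold, and 0.01 with library-size scaling. The part of the element in these values was not tested.
Ctsd, chr7:142387778-142388077, minus strand: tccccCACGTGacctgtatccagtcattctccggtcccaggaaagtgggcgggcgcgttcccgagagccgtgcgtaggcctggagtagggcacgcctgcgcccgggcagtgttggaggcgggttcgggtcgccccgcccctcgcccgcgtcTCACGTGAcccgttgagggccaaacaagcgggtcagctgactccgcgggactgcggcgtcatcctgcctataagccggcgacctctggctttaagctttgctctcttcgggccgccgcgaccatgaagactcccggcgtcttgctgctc
Ctsa, chr2:164833523-164833822, plus strand: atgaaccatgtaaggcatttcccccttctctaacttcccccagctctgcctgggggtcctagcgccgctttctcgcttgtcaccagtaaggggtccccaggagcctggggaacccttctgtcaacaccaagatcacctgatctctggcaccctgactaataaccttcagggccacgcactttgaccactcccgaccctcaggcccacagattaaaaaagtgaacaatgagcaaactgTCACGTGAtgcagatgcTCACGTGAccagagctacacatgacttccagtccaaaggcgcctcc

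**Figure D2:**
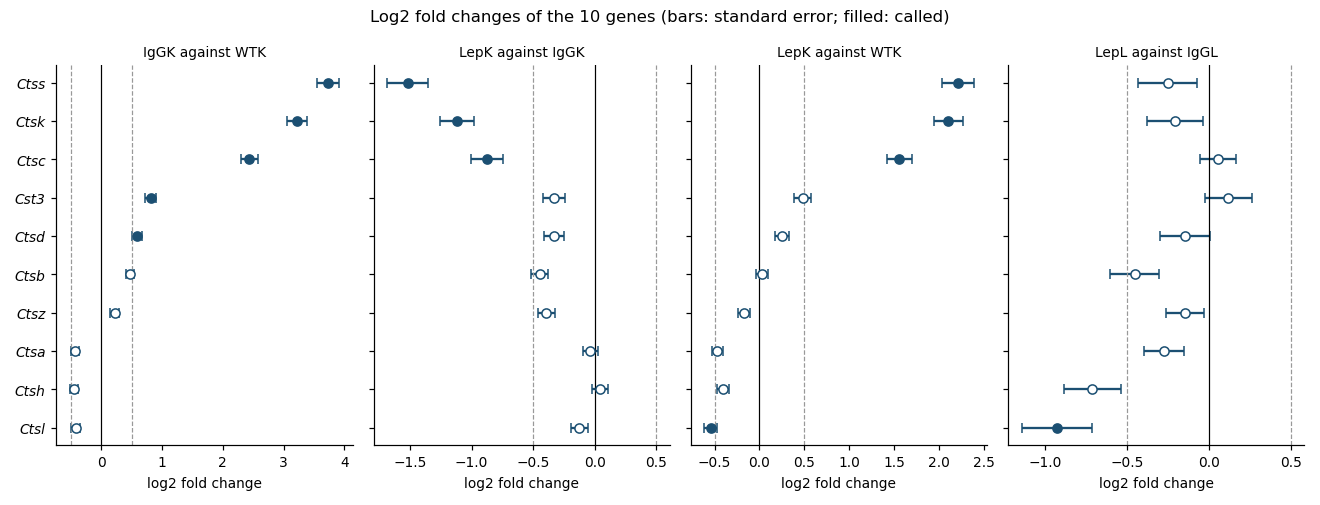
Log2 fold change (x axis) of each of the 10 genes in the 4 comparisons, from edgeR. Bars are standard errors, dashed lines mark the fold threshold of 0.5, filled points were called and open points were not. *Ctss*, *Ctsk* and *Ctsc* are called in all 3 kidney comparisons, and *Ctsl* is the filled point in lung at -0.93.

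Other lysosomal genes went in both directions in IgGK. Of 33 genes listed as lysosomal hydrolases other than cathepsins, 17 were called lower and 6 higher in IgGK, with a median log2 fold change of -0.50. That list also holds the activator proteins *Gm2a* and *Psap*. *Arsb* (arylsulfatase B, -1.69) and *Neu1* (-1.53) were the lowest, and *Pla2g15* (lysosomal phospholipase A2, 1.49) was the highest. *Neu1*, a partner of *Ctsa*, went from 763 ± 13.4 CPM in WTK to 264 ± 33.4 in IgGK, and *Glb1*, the other partner, named here for that complex after its value was seen, from 251 ± 11.3 to 118 ± 17.4 (SD, n = 3). Among 22 subunits of the vacuolar ATPase, the proton pump that acidifies lysosomes, 10 were called lower and 1 higher. The one called higher was *Tcirg1* (1.38), the subunit that osteoclasts use, while *Atp6v0a4*, an intercalated cell subunit, was the lowest (-1.01). With library-size scaling 8 hydrolases were called higher and 7 lower, and 3 ATPase subunits higher and 1 lower. Of 13 genes listed as lysosomal membrane proteins, which include the soluble *Npc2*, 4 were called higher and 4 lower, or 6 and 0 with library-size scaling. The highest were *Cd68* (3.30), which is also one of the macrophage markers, and *Laptm5* (2.67), a membrane protein of blood cells. The lowest was the sialic acid carrier *Slc17a5* (-0.80). Of 9 genes of lysosomal sorting and transcription 3 were called higher and 3 lower (median 0.24), or 6 and 1 with library-size scaling. Among them *Mitf*, a transcription factor of lysosomal genes, rose by 0.68 (edgeR adjusted p = 0.00129), and the sorting receptor *Igf2r*, which carries mannose 6-phosphate proteins to the lysosome, fell by 1.09 on the log2 scale (edgeR adjusted p = 1.53e-07).

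Of the cathepsins outside the 10 genes, 4 and legumain could be tested in kidney. *Ctsw*, a protease of cytotoxic lymphocytes, and *Ctse*, an aspartic protease of endosomes, were called higher in IgGK, at 1.41 and 1.25 (log2), from levels of 3.33 ± 0.633 and 2.37 ± 0.306 CPM in WTK. All 8 proximal tubule markers were called lower, with a median log2 fold change of -1.60. Their summed level was 15400 to 16280 CPM in WTK, 3766 to 5091 in IgGK and 6960 to 9014 in LepK. Beside them, 17 of the 33 genes listed as hydrolases were called lower and 6 higher, or 7 lower and 8 higher with library-size scaling. The part of tubule RNA in these values was not tested.

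**Figure D3:**
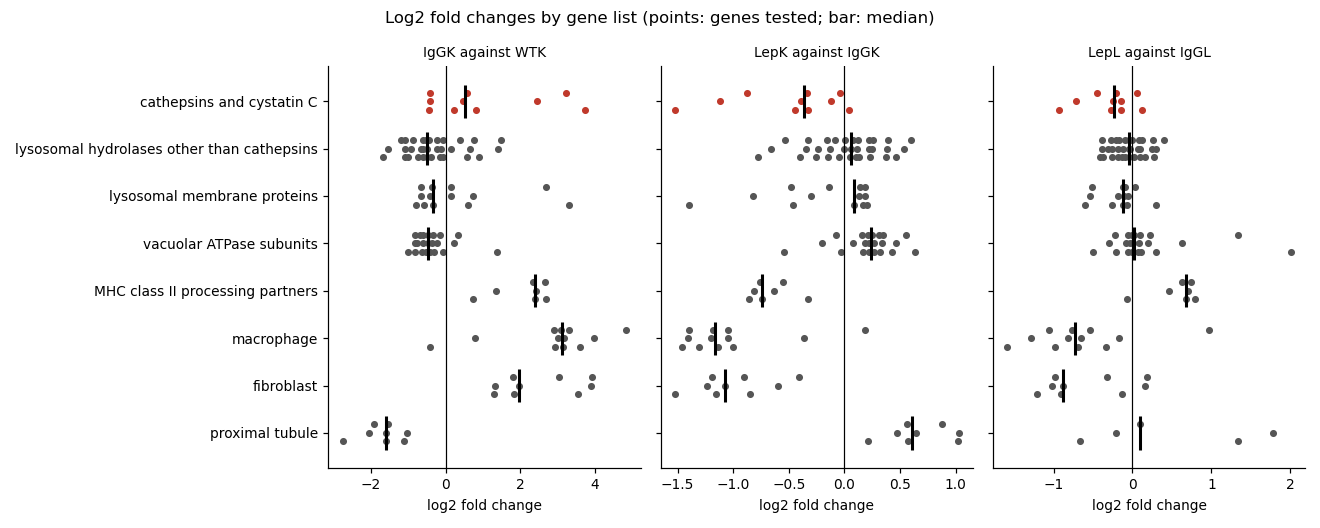
Log2 fold change (x axis) of each gene tested in 8 gene lists (rows) in 3 comparisons. Points are genes, vertical bars are list medians and the 10 genes described here are in red. In IgGK against WTK the hydrolases have a median of -0.50 and the macrophage markers of 3.11, with the 10 genes spread from -0.45 to 3.73.

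The question of the second comparison is whether LepAb changed these genes in kidneys injured in the same way. Of the 10 genes 3 were called lower in LepK than in IgGK, where 5.99% of all genes tested were called lower. Higher calls numbered 0 with edgeR and with DESeq2, beside 4.38% of all genes with edgeR, and 0 of the 10 were higher at an unadjusted p under 0.05. The median log2 fold change of the 10 was -0.36, beside -0.01 over all genes. This comparison shares the IgGK libraries with the one before, so the directions of the 2 are not independent of each other.

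*Ctss* fell by 1.52 (log2) in LepK (SE 0.17, edgeR adjusted p = 1.74e-04), *Ctsk* by 1.12 (SE 0.14, edgeR adjusted p = 3.62e-04) and *Ctsc* by 0.88 (SE 0.13, edgeR adjusted p = 9.39e-04). These correspond to levels 2.87-fold, 2.17-fold and 1.84-fold lower. Each of these calls was kept in all 9 fits that left out 1 kidney library. In 4 further genes LepK was below IgGK without overlap and with an adjusted p under 0.05, but short of the fold threshold. Their log2 fold changes were -0.45 for *Ctsb*, -0.39 for *Ctsz*, -0.33 for *Ctsd* and -0.33 for *Cst3* (edgeR adjusted p 9.51e-04, 0.0018, 0.0121 and 0.0221). With library-size scaling all 7 genes were called lower, beside a median of -0.19 over all genes. *Ctsa*, *Ctsh* and *Ctsl* had log2 fold changes of -0.04, 0.04 and -0.12 (edgeR adjusted p 0.73, 0.678 and 0.233), with standard errors of 0.06 to 0.07, and the value of *Ctsh* was -0.14 with library-size scaling.

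Of 7 MHC class II processing partners 6 were called lower, with a median log2 fold change of -0.74, and *Cd74* stood at 897 ± 128 CPM in LepK. Of 12 macrophage markers 10 were called lower (median -1.16), with *Lyz2* at -1.47, *Adgre1* (the F4/80 antigen) at -1.41 and *Cd68* at -1.40. Of 9 fibroblast markers 8 were called lower (median -1.07) and of 8 proximal tubule markers 6 were called higher (median 0.61), or 3 with library-size scaling. All 4 neutrophil markers tested were called lower (median -2.12), with a summed level of 16.94 to 25.89 CPM in IgGK and 6.913 to 9.932 in LepK. In the fits that left out 1 kidney library, only 1 to 3 neutrophil markers were called lower. Called lower were also 2 of 5 osteoclast markers, 1 of 6 T cell markers and 1 of 6 adipocyte markers. Of 4 cathepsin C substrates 0 were called with edgeR and with DESeq2, and 1 was lower at an unadjusted p under 0.05. These changes stood beside those of *Ctss*, *Ctsk* and *Ctsc*, and their part in them was not tested. The hydrolases had a median of 0.06, with 3 called lower and 2 higher. *Pla2g15* (-0.78) and *Hexa* (beta-hexosaminidase A, -0.66) fell, and *Neu1* rose by 0.60 on the log2 scale, or was not called with library-size scaling, under which 0 hydrolases were called higher. For *Ctsa*, the partner of *Neu1*, the difference between LepK and IgGK was smaller than its standard error.

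LepK was also compared with WTK, which shares libraries with both comparisons above. Called higher were 3 of the 10 genes, beside 15.2% of all genes, and called lower was 1, beside 7.30% of all genes. *Ctss* was still 2.21 above WTK on the log2 scale (edgeR adjusted p = 4.13e-06), *Ctsk* 2.11 (edgeR adjusted p = 2.42e-06) and *Ctsc* 1.56 (edgeR adjusted p = 8.05e-06). *Cst3* was 0.48 higher (edgeR adjusted p = 0.00128) and *Ctsd* 0.25 (edgeR adjusted p = 0.0265), both below the fold threshold. The log2 fold change of *Ctsb* was 0.03 (SE 0.07, edgeR adjusted p = 0.774). *Ctsl* was the gene called lower, at -0.55 (edgeR adjusted p = 7.53e-05), and it was not called without WTK replicate 2 (-0.49) or with library-size scaling (-0.28).

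Summed over the 9 cathepsins, FPKM stood at 563 ± 12.2 in WTK, at 767 ± 56.8 in IgGK and at 565 ± 22.8 in LepK (SD, n = 3, a description with no test). The composition differed more than the sum. *Ctss* made up 1.73% ± 0.336 of the cathepsin FPKM in WTK, 16.4% ± 1.71 in IgGK and 7.92% ± 1.27 in LepK. *Ctsl* made up 14.5% ± 0.744, 7.80% ± 0.591 and 9.86% ± 0.423 of it, and *Ctsb* 18.3%, 18.2% and 18.4%. The ratio of this sum to *Cst3* was 3.66, 3.84 and 3.64 in the WTK libraries, 3.04, 2.86 and 2.98 in IgGK and 2.88, 2.52 and 2.71 in LepK. The ratio in WTK thus lay above that of each injured kidney, while IgGK and LepK overlapped. This holds for the sum of all 9 cathepsins, which includes *Ctsa* and *Ctsd*, whose proteins cystatin C does not block. *Ctsd* made up 25.0% of the sum in WTK, 26.8% in IgGK and 29.4% in LepK. A ratio without *Ctsa* and *Ctsd* was not computed. In lung the ratio was 3.26, 4.49 and 4.76 in IgGL and 3.69, 3.04 and 2.504 in LepL, and the groups overlapped. FPKM count RNA and say nothing of enzyme activity.

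**Figure D4:**
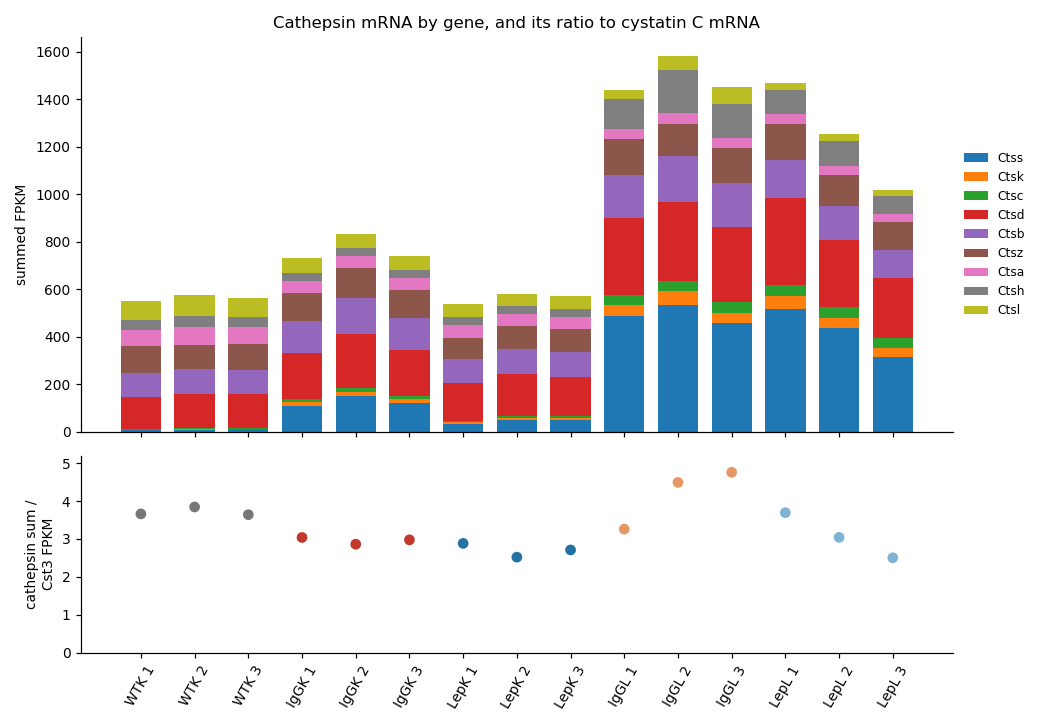
Upper plot, FPKM of the 9 cathepsins stacked by gene in each of the 15 libraries, as deposited. Lower plot, the sum divided by *Cst3* FPKM in the same libraries. The sum is larger in lung than in kidney, *Ctss* (lowest block) goes from 1.73% of it in WTK to 16.4% in IgGK, and the ratio to *Cst3* lies between 3.64 and 3.84 in WTK and between 2.52 and 3.04 in the injured kidneys.

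The lung comparison asks whether LepAb changed these genes in bleomycin-injured lung. Of the 10 genes 1 was called lower in LepL than in IgGL, beside 2.36% of the 19617 genes tested. Higher calls numbered 0 with edgeR and with DESeq2, beside 1.78% of all genes with edgeR, and 0 of the 10 were higher at an unadjusted p under 0.05. The median log2 fold change of the 10 was -0.23, beside 0.00 over all genes. Standard errors were 0.11 to 0.21, beside 0.06 to 0.17 in LepK against IgGK. Without IgGL replicate 1 *Ctsl* and *Ctsh* were called lower, and the calls over all genes in LepL against IgGL went to 1937 higher and 1602 lower. In the 5 fits that each lacked another lung library those counts were 0 to 18 higher and 0 to 4 lower.

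*Ctsl* held 357, 566 and 675 CPM in IgGL and 285, 307 and 248 in LepL. Every LepL library was below every IgGL library, although IgGL replicate 1 was close to them. The log2 fold change was -0.93 (SE 0.21, edgeR adjusted p = 0.0492). This call rested on a narrow margin, since the adjusted p was 0.05 to 0.0522 under the other scalings and 0.0866 to 0.216 in the 5 fits that left out another library than IgGL replicate 1. Without IgGL replicate 1 the log2 fold change was -1.15 (edgeR adjusted p = 0.00141). *Lgmn* encodes legumain, the asparagine-specific protease that cuts several cathepsins into their mature chains. It was called lower too, with 708 ± 183 CPM in IgGL and 354 ± 55.9 in LepL (log2 fold change -1.001, SE 0.21, edgeR adjusted p = 0.0395).

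*Ctsh* held 826, 1190.1 and 961 CPM in IgGL and 653, 672 and 496 in LepL, without overlap. Its log2 fold change of -0.71 (SE 0.18) missed the threshold with edgeR (adjusted p = 0.0545) and passed it with DESeq2 (adjusted p = 0.00194) and without IgGL replicate 1 (edgeR adjusted p = 0.0102). In these lungs 4 of 8 alveolar type 2 markers were called higher in LepL, or 0 to 8 when 1 lung library was left out. The median over all 8 was 0.88 (log2). Among them *Sftpc*, surfactant protein C, stood at 5335 ± 2059.7 CPM with IgG and at 14071 ± 2494 with LepAb (SD, n = 3), and *Lamp3*, a lysosomal membrane protein of lamellar bodies, had a log2 fold change of 1.62. *Sftpb*, whose protein cathepsin H helps to process, had 2179 ± 329.6 and 3275 ± 239 CPM and was not called (log2 fold change 0.59, edgeR adjusted p = 0.0632), and was named for that link after its value was seen. *Ctsh* and these markers thus had opposite signs in the same comparison.

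*Ctsb* held 1558, 1705 and 1687 CPM in IgGL and 1381, 1239 and 1000.5 in LepL. The groups did not overlap, and the log2 fold change was -0.45 (SE 0.15, edgeR adjusted p = 0.0989). *Ctsa* held 286, 309 and 276 CPM in IgGL and 266, 248 and 207 in LepL, also apart, with a log2 fold change of -0.27 (SE 0.12, edgeR adjusted p = 0.187). Neither passed the test.

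For the other genes the lung groups overlapped. *Ctss* had 946, 1058 and 925 CPM in IgGL and 999.98, 852 and 611 in LepL (log2 fold change -0.25, SE 0.18, edgeR adjusted p = 0.407). *Ctsk* had 107, 131 and 89.2 CPM in IgGL and 114, 90.6 and 78.6 in LepL (log2 fold change -0.21, SE 0.17, edgeR adjusted p = 0.48). *Ctsc* had 342, 369.6 and 392.2 CPM in IgGL and 410.3, 371 and 368 in LepL (log2 fold change 0.06, SE 0.11, edgeR adjusted p = 0.772). In *Ctss* LepL replicate 3 was the lowest library and LepL replicate 1 lay among those of IgGL. *Ctsd* had 1099, 1141 and 1101 CPM in IgGL and 1224, 953 and 846 in LepL (log2 fold change -0.14, edgeR adjusted p = 0.584). *Ctsz* had 309.7, 289 and 314 CPM in IgGL and 310.3, 270.0 and 246 in LepL (log2 fold change -0.14, edgeR adjusted p = 0.463). *Cst3* had 802, 652 and 572 CPM in IgGL and 717, 748 and 735 in LepL (log2 fold change 0.12, edgeR adjusted p = 0.633). In *Ctsd*, *Ctsz* and *Ctss* the 3 LepL libraries were spread more widely than those of IgGL, and in *Cst3* those of IgGL were.

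The cell markers in lung were as follows. Of 12 macrophage markers 4 were called lower in LepL and the median over the 12 was -0.73 (log2), led by *Itgam* (-1.59), *Fcgr1* (-1.28) and *Mrc1* (-1.06). Their summed level was nevertheless 4364 to 7068 CPM in IgGL and 8313 to 8580 in LepL, because *Lyz2*, the most abundant of them, stood at 3644 ± 1575 and 7169 ± 199 CPM and was not called (edgeR adjusted p = 0.0752). *Lyz2* was the only 1 of the 12 with a positive log2 fold change (0.98), and 11 had negative ones. The summed alveolar type 2 markers were 7442 to 13600 CPM in IgGL and 19480 to 26150 in LepL. The part of alveolar type 2 cells in the *Lyz2* level was not tested. Of 7 MHC class II partners 0 were called with edgeR and with DESeq2, 1 had a higher value at an unadjusted p under 0.05, and 6 of 7 had a positive log2 fold change (median 0.68). Of 33 other hydrolases 0 were called in either direction with edgeR and with DESeq2, with 6 lower and 1 higher at an unadjusted p under 0.05. Of 9 fibroblast markers 5 were called lower, with *Col1a1* at 2244 ± 139 CPM in IgGL and 971 ± 256 in LepL. Of 5 adipocyte markers tested 2 were called higher (median 1.30), with a summed level of 40.99 to 90.58 CPM in IgGL and 136.3 to 168.1 in LepL. The direct test between the organs passed for 1 of 12 macrophage, 1 of 9 fibroblast, 3 of 7 MHC class II and 4 of 6 adipocyte markers, all with the lower log2 fold change in kidney. For neutrophil markers 0 of 8 passed with edgeR, and 2 had the higher log2 fold change in kidney at an unadjusted p under 0.05. Of the serine proteases activated by cathepsin C, *Gzma* (granzyme A) was called higher, at 2.65 ± 1.36 CPM in IgGL and 11.97 ± 3.81 in LepL. The cystatin-like *Stfa2l1*, a stefin of neutrophils, fell by 4.05 on the log2 scale, from 4.15 ± 1.75 to 0.246 ± 0.324 CPM, and 5 of 8 neutrophil markers were called lower beside it. Without IgGL replicate 1, edgeR called 9 macrophage markers lower and 6 MHC class II partners higher. Over all fits that left out 1 lung library, 0 to 9 macrophage, 0 to 6 neutrophil and 0 to 5 fibroblast markers were called lower. In these fits 0 to 6 MHC class II partners, 0 to 5 adipocyte markers and 0 to 2 cathepsin C substrates were called higher. Of the cystatins listed with *Stfa2l1*, 0 to 4 were called lower. A value of 0 means that at least 1 fit called no gene of that list.

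Whether the antibody comparison differed between the organs was tested directly, as LepK against IgGK minus LepL against IgGL, at an adjusted p under 0.05. Of the 10 genes 4 passed, beside 7.12% of the 21488 genes tested. The log2 difference was -1.24 for *Ctss* (SE 0.26, edgeR adjusted p = 0.0193), -0.91 for *Ctsc* (SE 0.19, edgeR adjusted p = 0.0192) and -0.88 for *Ctsk* (SE 0.25, edgeR adjusted p = 0.0487), so the value in kidney was below that in lung for these 3 genes. For *Ctsh* it was 0.79 (SE 0.20, edgeR adjusted p = 0.0341), with the lower value in lung. *Ctsl* had 0.83 (SE 0.24, edgeR adjusted p = 0.0564) and *Cst3* -0.42 (SE 0.18, edgeR adjusted p = 0.156). Among the 12 fits that left out 1 library, *Ctss* passed in 11, *Ctsc* in 10, *Ctsh* in 3 and *Ctsk* in 2, and without IgGK replicate 2 none of the 10 genes did and without IgGL replicate 2 only 1 did. Over all genes, 147 higher and 220 lower of 22359 passed without IgGK replicate 2. Without IgGL replicate 2 these were 157 and 195 of 22323. Organ, injury agent and days of treatment differed together and cannot be told apart.

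**Figure D5:**
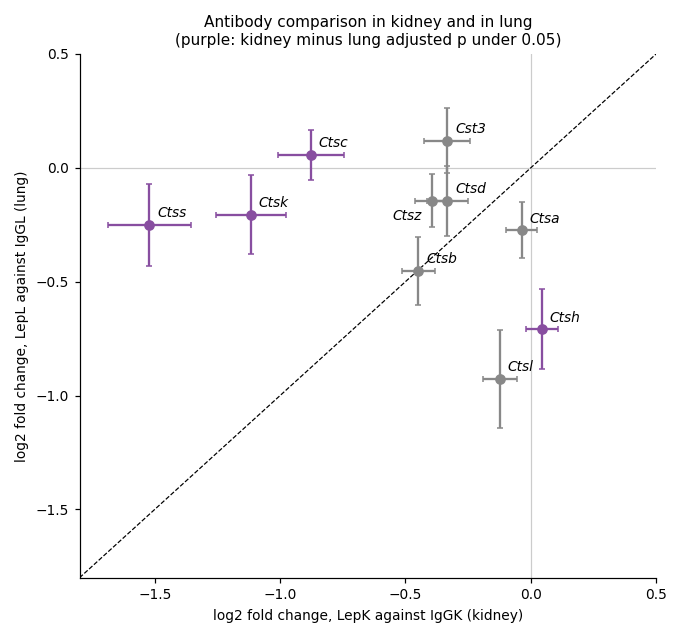
Log2 fold change of LepK against IgGK (x axis) and of LepL against IgGL (y axis) for each of the 10 genes, with standard errors as bars and equal values on the dashed line. Purple genes passed the test of the difference between the organs. *Ctss*, *Ctsk* and *Ctsc* lie left of the line, at -1.52, -1.12 and -0.88 in kidney, and *Ctsh* lies below it, at -0.71 in lung.

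Likeness of pattern was measured as the root mean square difference of log2 CPM, each gene centred within kidney and within lung, over the 15 libraries and among 11030 genes. It is a description, and the points share libraries and depth. Values are also small where both genes hardly move. The root mean square of a gene's own centred values was 0.154 for *Ctsz*, 0.224 for *Ctsd*, 0.244 for *Ctsb* and 1.2 for *Ctss*. Among the 10 genes themselves *Ctsb* and *Ctsd* were closest (0.131), followed by *Ctsb* and *Ctsz* (0.147), while *Ctss* and *Ctsl* were farthest apart (1.36). *Ctss* and *Ctsc* lay at 0.451, farther apart than *Ctsk* and *Ctss* (0.273) or *Ctsc* and *Ctsk* (0.278). Outside the 10 genes *Ctss* was closest to *Cd84* (0.147) and *Ccl6* (0.202), a receptor and a chemokine of leukocytes, and *Ctsk* to *Lhfpl2* (0.141) and *Lpcat2* (0.151). For *Ctsc*, *Tead2* stood at 0.134. *Ctsl* was closest to *Lgmn* (0.0815) and *Tatdn2* (0.0942). *Ctsa* was closest to *Susd6* (0.0581), and *Ctsh* to *Klhl2* (0.0943) and *Crtap* (0.0953). *Ctsb* was closest to *Nans* (0.0733) and *Extl3* (0.0803), *Ctsd* to *Sdcbp* (0.0730) and the shedding protease *Adam17* (0.0862), *Ctsz* to *Ankfy1* (0.0816) and *Nup205* (0.0907), and *Cst3* to *Tep1* (0.0761) and *Rps6ka1* (0.0823).

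The libraries did not keep the strand, so reads of overlapping genes cannot be told apart. *Ctsa* overlaps *Pltp* and *Neurl2* (highest mean of either over all 15 libraries 68.6 CPM), *Ctsb* overlaps *Fdft1* (42.2 CPM) and *Ctsz* overlaps *Nelfcd* (38.8 CPM). The other 7 genes had no overlapping gene, or only ones with a mean of at most 0.233 CPM over those libraries. Single groups can lie above these means.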

How the data were processed

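Gene counts of 15 bulk RNA-seq libraries were used, and groups were taken from the sample titles. A column note in the sample descriptions names another tissue or treatment than the title for most samples. Columns were matched by the short library names in the same descriptions, and that of LepL replicate 3 carries an added suffix in the table. The authors deposited whole-number read counts per gene and FPKM values in 1 table. The submitters' processing notes name GRCm39 and mm39 as builds and DESeq2 as a tool, and the aligner and counter are not given in the sources used here. Per the labels, libraries were poly(A)-enriched and non-directional. The deposited FPKM were found to divide by 1.02 to 1.46 times the total count, and were used for levels between genes and for the cathepsin sum, its shares and its ratio to *Cst3*, all without a test. Columns of the authors' own comparisons (fold changes and p-values) were not used. Differences between replicates exceeded sampling noise (chi-square per gene 7.15 to 98.6), and each library counted as 1 replicate. The labels do not say that replicates are separate animals, and p-values measure the spread between libraries. At these depths 1 count is 0.0257 to 0.0386 CPM.

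Counts were fitted with edgeR 4.0.16 (R 4.3.3; TMM factors, filterByExpr with a minimum count of 10 and a minimum total of 15, quasi-likelihood test), the 9 kidney and the 6 lung libraries apart, and the kidney minus lung difference in 1 fit of 12. DESeq2 1.42.0, other scalings, filters, a replicate block and left-out libraries were alternatives, and the procedure was tested on simulated data. SE is the log2 fold change over the square root of F. Named were all 10 genes, up to 3 called genes with the largest change in each list (mean of at least 1 CPM), and the 2 genes most like each member, of which some are not reported here. The members and lists were chosen with earlier results of these data known. Promoters and their GRCm38.p6 positions came from RefSeq and gene positions from the deposited table.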

Additional observations from a re-analysis of the deposited data

Results flagged for a closer look

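The antibody comparison differed between kidney and lung in 4 of the 10 genes, beside 7.12% of all genes tested, by an edgeR test of LepK against IgGK minus LepL against IgGL. The log2 difference was -0.905 for *Ctsc* (adjusted p = 0.0192), 0.785 for *Ctsh* (adjusted p = 0.0341), -0.881 for *Ctsk* (adjusted p = 0.0487) and -1.24 for *Ctss* (adjusted p = 0.0193). In the 12 fits that left out 1 library, *Ctss* passed in 11, *Ctsc* in 10, *Ctsh* in 3 and *Ctsk* in 2. Of the 10 genes 0 passed without IgGK replicate 2, 1 without IgGL replicate 2 and 6 without IgGL replicate 1. The calls over all genes also moved between these fits. They were 147 higher and 220 lower of 22359 genes without IgGK replicate 2, and 157 and 195 of 22323 without IgGL replicate 2. Without IgGL replicate 1 they were 1853 and 1910 of 22313.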

How the results depend on the processing

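The alternatives gave 830 values for the 10 genes, of which 765 kept their direction and their side of the threshold, 20 passed it newly, 35 no longer passed it and 10 changed sign. The calls of *Ctss*, *Ctsk* and *Ctsc* in IgGK against WTK, and those in LepK against IgGK, held under all 17 alternatives each. Without a fold threshold 3 genes were lower in IgGK against WTK, 7 were lower in LepK against IgGK, and 5 were higher and 3 lower in LepK against WTK. With library-size scaling 7 were lower in LepK against IgGK, and 5 were higher and 0 lower in LepK against WTK. That scaling moved the median of all genes to 0.48, -0.19 and 0.29 in the kidney comparisons, and the calls over all genes from 4253 higher and 3057 lower to 7803 and 1178 in IgGK against WTK, from 858 and 1174 to 408 and 2185 in LepK against IgGK, and from 2984 and 1431 to 4782 and 512 in LepK against WTK. In the kidney minus lung difference it gave 249 genes higher and 1968 lower, beside 1531 in either direction with TMM. It turned the sign of *Ctsa* (0.00956) and *Ctsl* (0.0204) in IgGK against WTK, of *Ctsh* (-0.136) in LepK against IgGK and of *Ctsz* (0.0884) in LepK against WTK. Leaving out 1 library gave 0 to 1 gene called lower in LepK against WTK, 0 to 2 called lower in LepL against IgGL and 0 to 6 called in the kidney minus lung difference. In LepL against IgGL the 1 gene called lower became 0 with RLE, library-size and upper-quartile scaling, and 2 with DESeq2 and with no filter on low counts, and it became 2 without IgGL replicate 1 and 0 without any other library. In the kidney minus lung difference, *Ctsb* (0.03) had -0.217 with library-size scaling, -0.0285 with upper-quartile scaling, -0.0155 with a mean of at least 1 CPM, and -0.0826 to 0.138 when 1 library was left out (-0.011 without IgGL replicate 3), and *Ctsd* had -0.266 to 0.00167. The cause of these changes was not tested. Whether replicate numbers pair the samples is not settled. The deviations of same-numbered libraries correlated at -0.0553 to 0.182, with 2 of 12 pairs over 0.1, both in LepK against IgGK. Libraries with different numbers were not correlated for comparison. With the replicate number as a block, 0 of the 10 genes were called lower in LepL against IgGL. Over all genes that block gave 1 called higher and 3 lower in that comparison, beside 349 and 463 without it. The other counts of the 10 genes stayed as they were. Of 2036 values for other named genes 1877 kept their call and 159 lost it. With 3 libraries a group, standard errors in lung were up to 0.21 for the 10 genes, and the smallest count of any of them in a library was 88.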
